A study of Mus musculus with 8 samples.

Results

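Cyp1b1 and 5 genes of the aryl hydrocarbon receptor pathway (Ahr, Ahrr, Cyp1a1, Tiparp and Nqo1) were followed in mouse embryonic stem (ES) cells. They are 6 of 24921 gene names in the count tables, and 4 of them are among the 10311 genes that had enough reads to be tested. Cyp1b1 was chosen by its measured rise with a dTAG compound, among the largest in these libraries, and the other 5 because of their known link to the receptor. The change of Cyp1b1 with the compound is therefore given as values with no test, while the other 5 were listed for their role, with earlier results of these data known, and are tested. Per the labels, poly(A) RNA was sequenced in 8 libraries of V6.5 (C57BL/6-129) ES cells grown in 2i medium on gelatin, 2 libraries in each of 4 groups. A V6.5 line with an Oct4-Fkbp fusion (OCT4-FKBP) received DMSO for 24 h or the compound, labelled dTag9, for 24 h. Untagged V6.5 cells (WT) were kept with LIF or without it for 5 days. The labels do not say how many clones the tagged line holds, nor whether a group's libraries are of separate cultures. The p-values therefore rest on the spread among libraries that may be technical repeats. No untagged cells received the compound, so its own effects and those of OCT4 loss cannot be told apart.

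The aryl hydrocarbon receptor, encoded by Ahr, is a basic helix-loop-helix PAS protein that waits in the cytoplasm with HSP90 and co-chaperones. Once it binds a planar aromatic ligand it enters the nucleus, pairs with ARNT and binds xenobiotic response elements, whose core is GCGTG. Its best known targets are the cytochrome P450 genes Cyp1a1 and Cyp1b1, whose enzymes oxidise aromatic compounds and, for CYP1B1, also oestrogens and retinoids. The targets Ahrr, a repressor that competes for ARNT, and Tiparp, an ADP-ribosyltransferase that modifies the receptor, act back on it. Nqo1, a quinone reductase, is a target of the receptor and also of NRF2 (Nfe2l2), the activator of antioxidant genes. In ES cells OCT4 (Pou5f1) holds the pluripotent state, and LIF sustains self-renewal through STAT3.

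The promoters of the 3 members with the most reads are shown because the receptor is known to act through the core GCGTG. Each run is the 250 bases before the annotated start, from RefSeq on GRCm38.p6 and 5′ to 3′ on the gene's strand. Capitals mark GCGTG or its reverse complement CACGC.
Cyp1b1, chr17:79715062-79715311, minus strand: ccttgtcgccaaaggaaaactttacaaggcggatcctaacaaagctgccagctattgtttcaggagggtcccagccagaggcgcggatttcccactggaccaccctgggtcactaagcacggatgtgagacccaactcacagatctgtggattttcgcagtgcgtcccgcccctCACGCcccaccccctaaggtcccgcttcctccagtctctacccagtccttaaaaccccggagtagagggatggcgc
Tiparp, chr3:65528197-65528446, plus strand: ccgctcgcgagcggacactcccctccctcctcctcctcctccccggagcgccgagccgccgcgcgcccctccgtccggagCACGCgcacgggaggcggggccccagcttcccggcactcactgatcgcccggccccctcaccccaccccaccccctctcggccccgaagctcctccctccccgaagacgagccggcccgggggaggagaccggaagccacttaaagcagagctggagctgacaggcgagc
Nqo1, chr8:107403206-107403455, minus strand: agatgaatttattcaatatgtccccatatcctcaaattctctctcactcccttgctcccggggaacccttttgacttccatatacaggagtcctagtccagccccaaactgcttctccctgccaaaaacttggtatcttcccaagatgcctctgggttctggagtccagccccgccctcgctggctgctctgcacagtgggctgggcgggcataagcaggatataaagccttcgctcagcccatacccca
Cyp1b1 held 1 core, 76 bases before the start, and Tiparp held 1, 170 bases before it. Nqo1 held none in this window. Of the members not shown, Cyp1a1 (chr9:57697363-57697612, plus strand) held 1 core at 54 bases before the start. Ahrr (chr13:74292332-74292581, minus strand) held 3, at 107, 82 and 27 bases. Promoters were matched by symbol for 5 of the 6 genes, and Ahr had no entry. Over 32851 promoter windows of the same length, 28.2% held the core on either strand. The longer form TNGCGTG, which contains the core, was in 4.1% of them and, among the members, only in Ahrr. The antioxidant element TGACNNNGC, searched on both strands, was in 10.2% of windows and in none of the 5 members' windows. A match describes these letters only and is no measure of binding.

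Counted reads ranged from 7221451 to 11447468 per library, and the 2 libraries of a group gave r = 0.992 to 0.993 over genes, on log2 CPM (edgeR's count scaled to library size). Reads had been counted per transcript accession, and a read in sequence shared by several accessions of a gene appears to have been assigned to none. Names with 1 accession held 96.2% of counted reads. Cyp1b1, Tiparp and Nqo1 have 1 accession each, while Ahr, Ahrr and Cyp1a1 have 2. The transcript of the tagged gene, Pou5f1, was at 77.5 and 77.8 CPM with DMSO and at 84.6 and 90.2 CPM with dTAG. In WT cells it was at 425 and 336 CPM with LIF and at 205 and 170 CPM without it. The tagged line in DMSO was 4.91-fold below WT cells with LIF (edgeR adjusted p = 3.5e-16). These counts appear to cover only the sequence its accessions do not share. The change of Pou5f1 with dTAG was not called (log2 0.17), and the compound acts on the protein. The 12 ES cell markers, all of them detected in every group, summed to 7880 to 7929 CPM with DMSO, 3151 to 3164 with dTAG, 8492 to 8515 with LIF and 4358 to 4468 without it. Tfcp2l1 carried much of the sum (3573 CPM with DMSO), and members moved both ways. Without LIF most of the sum was Lin28a (1828 CPM) and Tdgf1 (1139 CPM), which both rose. With dTAG 10 of the 12 fell and Lin28a rose 5.36-fold (median log2 change -1.14), beside 20.3% of all tested genes lower and 20.1% higher. Without LIF 8 fell and 3 rose (median -2.07), beside 34.4% of all tested genes lower and 34.0% higher.

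Cyp1b1 was the member that moved most with the compound. It had 8 and 20 reads in the DMSO libraries and 1327 and 1323 in the dTAG libraries, or 1.12 and 1.76 CPM against 145 and 147 CPM. The WT libraries held 1.77 and 2.59 CPM with LIF and 6.57 and 8.73 CPM without it. Both dTAG libraries lay far above the other 6, and their own spread was small, at 146 ± 1.06 CPM (SD, n = 2) beside 1.44 ± 0.451 with DMSO. The fitted rise was 6.58 on the log2 scale (SE 0.16), 95.7-fold, which ranked 5 among 10311 genes. The neighbours in that ranking rest on few reads: Shh at rank 3 had 0 reads with DMSO and 28 with dTAG, and Gm20052 at rank 6 had 0 and 22. Cyp1b1 had 28 reads with DMSO and 2650 with dTAG. In a bulk library, more cells expressing a gene and more RNA per cell cannot be told apart.

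**Figure D1:**
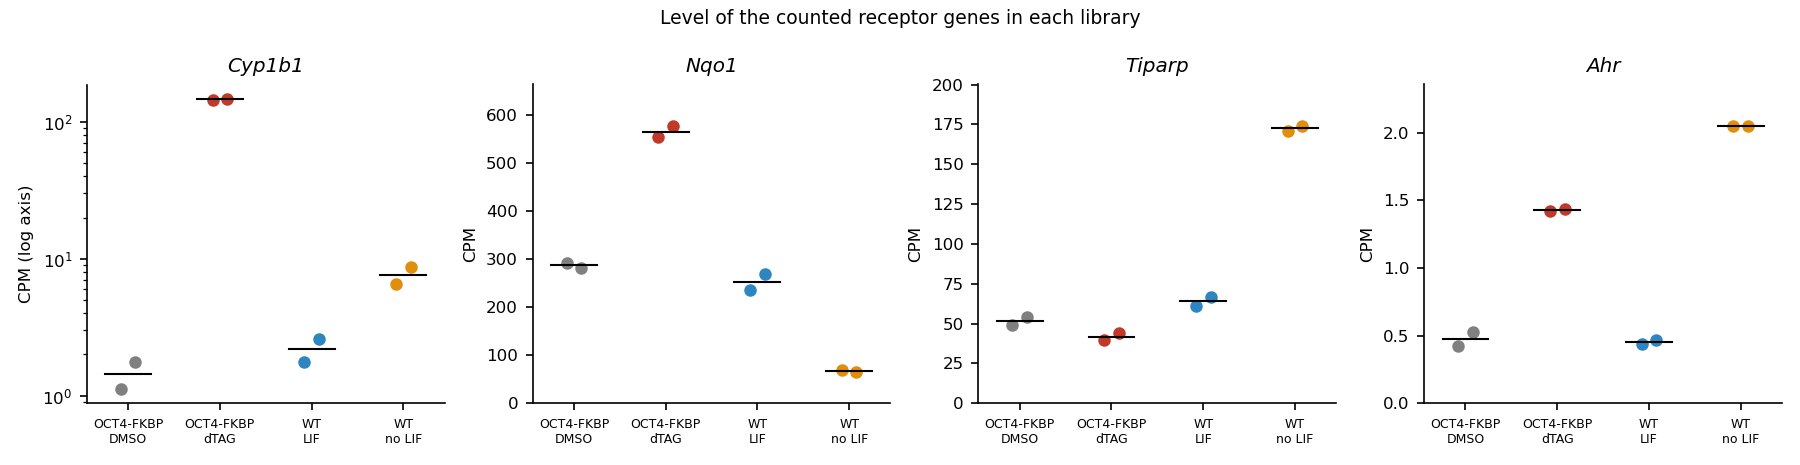
Level of each counted receptor gene in CPM (y axis, logarithmic for Cyp1b1 and from 0 for the others) in the 4 groups (x axis). Each point is 1 library and each line the mean of 2, and Cyp1b1 and Nqo1 are highest with dTAG while Tiparp and Ahr are highest without LIF.

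Cyp1b1 also rose after withdrawal of LIF, a comparison that had no part in choosing the gene. The mean level was 2.18 ± 0.581 CPM in the LIF libraries and 7.65 ± 1.52 CPM in those lacking it (SD, n = 2 each), a log2 change of 1.80 (SE 0.24), 3.49-fold, with an adjusted p of 2.1e-07 by edgeR's quasi-likelihood test. Both libraries without LIF lay above both with it. Such a rise was common in this comparison, where Cyp1b1 ranked 1086 among the rises. The log2 change with dTAG exceeded that without LIF by 4.78 (SE 0.39), given as a value only because it holds the contrast that chose the gene. Between the control groups, the tagged line in DMSO was lower than WT with LIF by a log2 change of -0.48 (SE 0.34), which was not called (edgeR adjusted p = 0.28). The order of Cyp1b1 levels was thus DMSO, LIF, no LIF and dTAG, of which the lowest pair did not overlap and was not called.

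Of the other 5 members, 3 could be tested with dTAG against DMSO and all 3 were called in the fit of 8 libraries, Nqo1 and Ahr higher and Tiparp lower, where 40.5% of all tested genes were called (20.1% higher and 20.3% lower). In each of the 3 the dTAG and DMSO libraries did not overlap, which held for 70.2% of all tested genes (34.8% higher and 35.4% lower). This is a count over members that passed the filter on low counts and not over all 5. Ahr passed it only through the groups where it is high. Cyp1a1 and Ahrr had 0 reads in all 8 libraries. The count was 2 with DESeq2, and 1 without DMSO replicate 2 or without dTAG replicate 1, when only Nqo1 was called.

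Nqo1 was the most abundant member. Its level was 293 and 281 CPM with DMSO and 554 and 577 CPM with dTAG. In WT cells it was 235 and 270 CPM with LIF and 68.9 and 66.1 CPM without it. The dTAG libraries were the highest of the 8 and those without LIF the lowest, with no overlap between groups in either comparison. With dTAG, Nqo1 rose 1.97-fold (log2 0.98, SE 0.06, edgeR adjusted p = 3.5e-13), from 287 ± 8.40 to 565 ± 16.2 CPM (SD, n = 2). Without LIF it fell 3.73-fold (log2 -1.90, SE 0.07, edgeR adjusted p = 1.4e-18), from 253 ± 24.4 to 67.5 ± 1.95 CPM. The difference between these responses was itself tested and came to 2.88 on the log2 scale (SE 0.09, edgeR adjusted p = 3.1e-19), where 55.0% of all tested genes differed (28.6% higher and 26.4% lower with the compound).

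Tiparp ran the other way from Nqo1. It was read at 49.4 and 53.9 CPM with DMSO and at 39.9 and 43.9 CPM with dTAG. The WT libraries held 61.2 and 66.9 CPM with LIF and 171 and 174 CPM without it. The 2 libraries without LIF stood well above the other 6, and the dTAG libraries were the lowest. The fall with dTAG was small, 1.24-fold (log2 -0.31, SE 0.09, edgeR adjusted p = 0.0061). It was not called without DMSO replicate 2 (log2 -0.24, adjusted p = 0.13) or without dTAG replicate 1 (log2 -0.25, adjusted p = 0.11). Without LIF, Tiparp rose 2.70-fold (log2 1.43, SE 0.07, edgeR adjusted p = 2.7e-15), from 64.1 ± 4.07 to 173 ± 2.43 CPM (SD, n = 2). The difference between both responses was -1.74 (SE 0.12, edgeR adjusted p = 1.1e-12). Tiparp overlaps 4931440P22Rik on the other strand, which had 9 reads in the 8 libraries together.

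Ahr, the receptor itself, was near the detection limit of the counting, with 83 reads in all, every one on 1 of its 2 accessions. The DMSO libraries had 3 and 6 reads, the dTAG libraries 13 and 13, those with LIF 5 and 4 and those without LIF 24 and 15. On the CPM scale this was 0.421 and 0.528, 1.42 and 1.44, 0.441 and 0.471, and 2.05 and 2.05. Groups did not overlap in either response, dTAG lying above DMSO and no LIF above LIF. Ahr passed the low-count filter only through the groups where it is high, so the p-values from the filtered set are given beside those with no filter. The rise with dTAG was 2.89-fold (log2 1.53, SE 0.52, edgeR adjusted p = 0.019, or 0.023 with no filter). It was not called by DESeq2 (adjusted p = 0.13), nor when any 1 of the 4 libraries of the comparison was left out (edgeR adjusted p from 0.084 to 0.10). Without LIF Ahr rose 4.41-fold (log2 2.14, SE 0.47, edgeR adjusted p = 2.8e-04, or 8.5e-05 with no filter). The difference between the responses was -0.61 (SE 0.76, edgeR adjusted p = 0.52) and was not called. Only reads in sequence particular to 1 of the 2 Ahr accessions appear to be counted, and Gm48236 overlaps the gene on the other strand.

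Neither Cyp1a1, the classical inducible target, nor Ahrr, the repressor, had a read in 75567254 counted reads. A count of 0 allows up to 0.0397 CPM (3 reads over the 8 libraries), for counting error only. Each has 2 accessions, so reads in shared sequence appear to be uncounted, and their absence says little about expression. Cyp1a2, the other P450 of its subfamily, has 1 accession and was too low to test, with 0.702 and 0.704 CPM with DMSO, 1.20 and 0.998 with dTAG, 0.530 and 0.235 with LIF and 0 in both libraries without LIF. It is named outside the naming rule, after its values were seen.

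**Figure D2:**
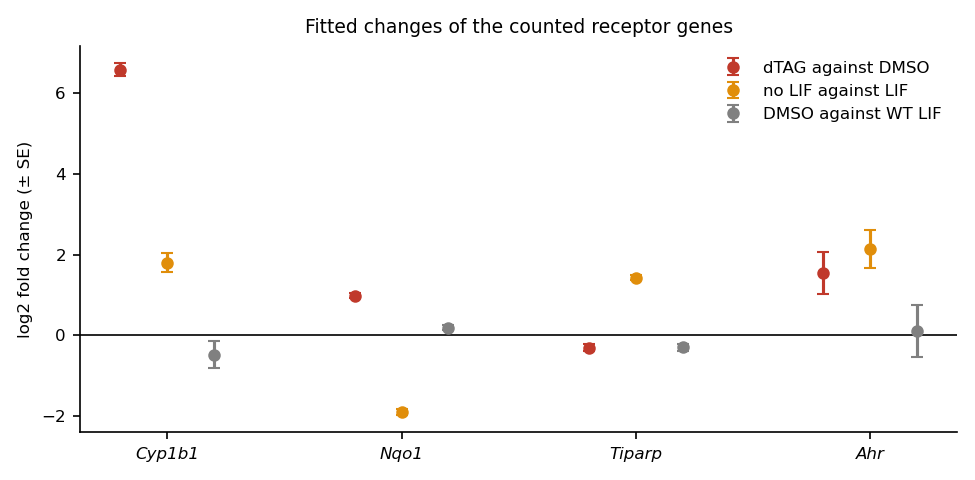
Fitted log2 fold change (y axis) of the 4 counted receptor genes (x axis) in 3 comparisons, with bars of ± 1 SE. Nqo1 lies above 0 with dTAG and below 0 without LIF, Tiparp the reverse, and Cyp1b1 and Ahr above 0 in both.

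Of the 6 members, 4 could be tested without LIF and were called, Cyp1b1, Tiparp and Ahr higher and Nqo1 lower, where 68.4% of all tested genes were called (34.0% higher and 34.4% lower). Their groups did not overlap, as for 81.5% of all tested genes (40.3% higher and 41.2% lower). This count, too, covers only members that passed the filter, Ahr through its high groups alone, and nothing is read from it. Between the tagged line in DMSO and WT cells with LIF, 2 of 4 were called, where 40.6% of all tested genes were (18.5% higher and 22.1% lower). The libraries of both, and those of Cyp1b1, did not overlap, as for 67.5% of all tested genes (30.8% higher and 36.8% lower). Nqo1 was 1.14-fold higher in the tagged line (log2 0.19, SE 0.06, edgeR adjusted p = 0.017), and Tiparp was 1.23-fold lower (log2 -0.30, SE 0.08, edgeR adjusted p = 0.0051). Ahr was not called (log2 0.10, SE 0.65, edgeR adjusted p = 0.93). Neither of the 2 calls held throughout. Nqo1 was not called without DMSO replicate 1 (edgeR adjusted p = 0.072) or without LIF replicate 1 (log2 0.08, adjusted p = 0.31). Tiparp was not called without DMSO replicate 1 (log2 -0.22, edgeR adjusted p = 0.12) or without LIF replicate 2 (log2 -0.20, adjusted p = 0.077). Tag, clone, DMSO and culture cannot be told apart here, and the DMSO libraries are those of the dTAG comparison.

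Levels between genes were compared as CPM per kb of GENCODE transcript, for the 3 members with 1 accession. With DMSO, Nqo1 stood at 185 ± 5.41, Tiparp at 12.3 ± 0.750 and Cyp1b1 at 0.281 ± 0.0879 CPM per kb (SD, n = 2). With dTAG, Nqo1 stood at 364 ± 10.4, and Cyp1b1, at 28.5 ± 0.208, had passed Tiparp, at 10.0 ± 0.671. Without LIF, Nqo1 at 43.5 ± 1.26 and Tiparp at 41.2 ± 0.581 had come close to each other, above Cyp1b1 at 1.49 ± 0.297. Nqo1 thus remained the highest of the 3 in each group, although Cyp1b1 changed far more.

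The receptor's partners and chaperones moved in both directions. Of 16 genes of the receptor complex, 12 were tested with dTAG against DMSO, 3 rose and 4 fell (58.3% called, beside 40.5% of all tested genes), with a median log2 change of -0.02 beside 0.00 over all tested genes. Ncoa1, a coactivator, fell from 98.1 and 92.9 to 49.2 and 50.1 CPM (log2 -0.94, SE 0.08, edgeR adjusted p = 2.2e-10). The chaperone Hsp90aa1 fell by 0.50 and its co-chaperone Ptges3 by 0.41 on the log2 scale. Arnt, the receptor's partner, had 2 accessions and 5.19 and 4.31 CPM with DMSO against 4.49 and 4.21 with dTAG, and was not called (log2 -0.10). Arnt2, a second partner gene, fell with dTAG (log2 -0.53, SE 0.20, edgeR adjusted p = 0.037). Without DMSO replicate 1, DMSO replicate 2 or dTAG replicate 1, 4 genes of the complex were called in place of 7. Among the calls that were lost was Ncoa3 (log2 0.15, edgeR adjusted p = 0.021), which was not called without any 1 of the 4 libraries. Without LIF, 4 of the complex genes rose and 6 fell (83.3% called, beside 68.4% of all tested genes), with a median of -0.10, beside -0.02. Among those that rose, Ncoa7, named after its values were seen, passed the filter only through the libraries without LIF. Arnt fell 2.09-fold (edgeR adjusted p = 0.0018), from 4.24 and 7.76 CPM with LIF, libraries that differ widely, to 2.82 and 2.73 CPM. Arnt2 rose 4.74-fold from 8.56 and 7.65 to 37.6 and 40.0 CPM (edgeR adjusted p = 2.6e-14), and Ncoa3 fell 2.20-fold.

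Other known receptor targets moved in both directions. Of 24, 12 were tested. With dTAG 2 rose and 5 fell (58.3% called, beside 40.5% of all tested genes), with a median log2 change of -0.33. Without LIF 5 rose and 5 fell (83.3% called, beside 68.4%), with a median of -0.06. Among those that rose, Ptgs2 and Socs2, named after their values were seen, passed the filter only through the libraries without LIF. Id2, an inhibitor of helix-loop-helix factors, rose with dTAG (log2 1.04, SE 0.17) from 6.60 and 6.34 to 11.4 and 15.2 CPM, and also rose without LIF (log2 3.12, SE 0.14). Lpar6, a lysophosphatidic acid receptor gene, likewise rose in both (log2 0.63 and 2.95). The amino acid transporter gene Slc7a5 fell from 845 and 826 to 388 and 364 CPM with dTAG (log2 -1.15, SE 0.05, edgeR adjusted p = 8.7e-16), and by 0.35 without LIF. Cyp2s1, a P450 gene, fell in both (log2 -1.33 and -1.84). Abcg2, an efflux pump gene with 2 accessions, fell with dTAG (log2 -0.90) and rose without LIF (log2 2.81). Without dTAG replicate 2, 4 of these targets were called with dTAG in place of 7.

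**Figure D3:**
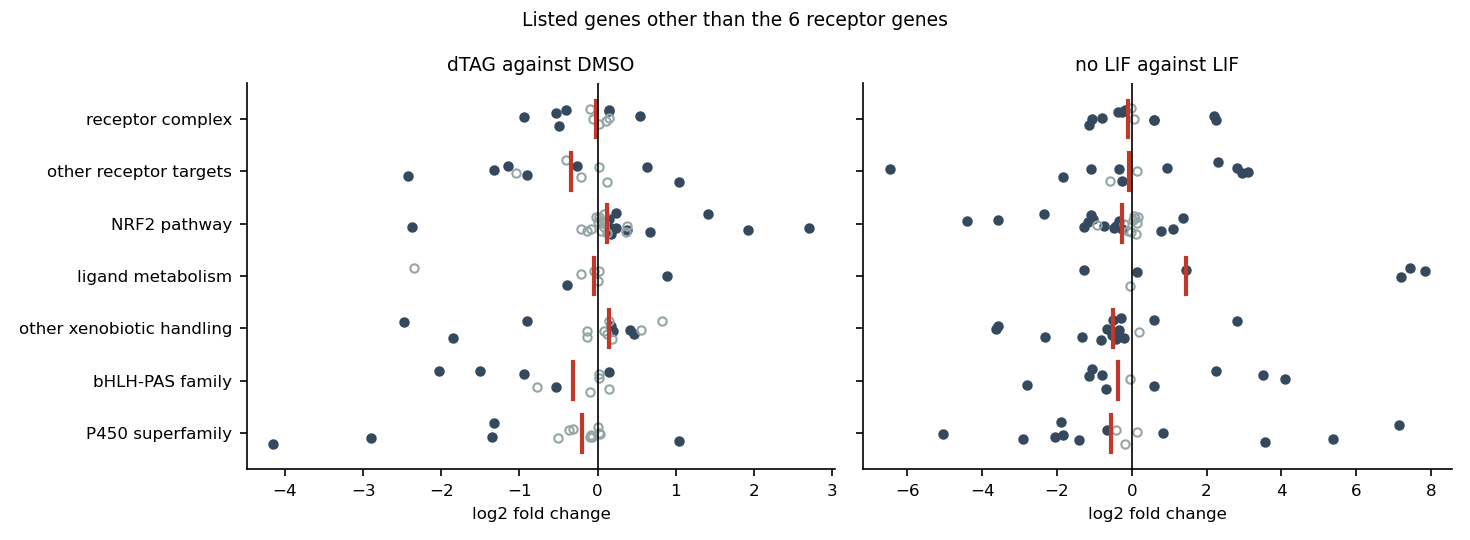
Fitted log2 fold change (x axis) of the tested genes of each list (rows), members left out, with dTAG against DMSO on the left and no LIF against LIF on the right. Filled points were called, open points were not, red bars are medians, points past 5 on the right include genes with 0 reads in a group, and no list lies wholly to 1 side.

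Nqo1 is also a gene of the NRF2 pathway. Of 30 other genes listed for it 25 were tested, and with dTAG 10 rose and 1 fell, with a median log2 change of 0.12. The 44.0% called is near the 40.5% of all tested genes (20.1% higher and 20.3% lower). Gpx2, a glutathione peroxidase gene, rose from 58.1 and 60.5 to 229 and 225 CPM (log2 1.93, SE 0.07, edgeR adjusted p = 2.1e-17). Srxn1, which repairs oxidised peroxiredoxins, rose from 74.7 and 73.6 to 200 and 194 CPM (log2 1.41, SE 0.07, edgeR adjusted p = 3.4e-15), and Sqstm1, an autophagy receptor gene with 2 accessions, rose by a log2 change of 0.67. The gene that fell, named after its values were seen, was the cystine transporter gene Slc7a11 (log2 -2.38, SE 0.29). Nfe2l2, which encodes NRF2, was not called (log2 0.12, edgeR adjusted p = 0.11). The count was 6 of the list without DMSO replicate 2 or dTAG replicate 1 and 7 without dTAG replicate 2, in place of 11.

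Without LIF the same list gave 3 higher and 12 lower genes (60.0% called, beside 68.4% of all tested genes), with a median of -0.26. Gpx2 fell 21.3-fold (log2 -4.41, SE 0.14, edgeR adjusted p = 5.1e-20), from 55.7 and 61.4 to 2.48 and 3.14 CPM, the opposite direction to its rise with dTAG and the same pair of directions as Nqo1. Gsta4, a glutathione transferase gene, fell by 1.17 on the log2 scale and had no call with dTAG (log2 -0.02). Gclm, a subunit of the enzyme that starts glutathione synthesis, rose (log2 1.38) and had no call with dTAG (log2 0.04). Srxn1 was not called without LIF (log2 0.15).

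Of 18 enzymes that make or break down receptor ligands, 7 were tested and the others had too few reads. For 6 of the untested, with several accessions, reads in shared sequence appear to be uncounted, so low counts there say little about expression. With dTAG 1 rose and 1 fell (28.6% called, beside 40.5% of all tested genes): Afmid, of the kynurenine route, rose from 10.5 and 9.59 to 17.7 and 19.4 CPM (log2 0.89, SE 0.15), and Maoa, which oxidises amines, fell (log2 -0.39, SE 0.09). Without LIF 5 rose and 1 fell (85.7% called, beside 68.4%; median 1.46), with Maoa higher (log2 1.46) and Afmid lower (log2 -1.29). Kynu, Aadat and Maob, named after their values were seen, make up 3 of the 5 rises and had 0 reads with LIF, so that they passed the filter only through the libraries without it. With a minimum of 5 CPM in 2 libraries 2 rose and 1 fell of 4 tested. Of 28 other genes of xenobiotic handling, 15 were tested, 4 rose and 3 fell with dTAG (46.7% called, near the 40.5% of all tested genes). Without LIF 2 rose and 12 fell (93.3% called, beside 68.4%; 34.4% of all tested genes were lower). The drug efflux pump genes Abcb1b (log2 -2.48) and Abcb1a (log2 -1.85) both fell with dTAG, Abcb1b from 57.4 and 56.2 to 10.1 and 10.2 CPM. They are close copies, so reads may be split between them. Gsto1, a glutathione transferase gene, rose with dTAG (log2 0.47) and fell without LIF (log2 -0.82), and was 4.38-fold higher in the tagged line in DMSO than in WT cells with LIF.

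Cyp1b1 and Cyp1a1 belong to the cytochrome P450 superfamily. Its genes were listed by names of the form Cyp, number, letter, number, so a P450 gene named otherwise was left out. Of the 91 other genes listed 41 had 0 reads in every library and 14 were tested. With dTAG 1 rose and 4 fell (35.7% called, near the 40.5% of all tested genes), with a median log2 change of -0.20, or -0.31 with groups at 0 reads set to the floor of 3. Cyp2b23 had the smallest adjusted p, falling from 36.5 CPM in both DMSO libraries to 1.97 and 2.11 CPM (log2 -4.15, SE 0.18, edgeR adjusted p = 1.8e-16). Its level in DMSO was 3.79-fold above that in WT cells with LIF, at 9.89 and 9.29 CPM (edgeR adjusted p = 7.0e-12). Cyp4f39 fell too (log2 -1.35). The 1 that rose, named after its values were seen, was Cyp27a1, a sterol hydroxylase gene, from 1.82 and 1.85 to 3.50 and 4.10 CPM (log2 1.04, SE 0.31, edgeR adjusted p = 0.0077). Without LIF 4 of these P450 genes rose and 7 fell (78.6% called, beside 68.4%; median -0.54), among the latter Cyp7b1 (log2 -2.05) and Cyp4f13 (log2 -1.88). Of the 4 rises, Cyp26a1, Cyp2j13 and Cyp2j9, named after their values were seen, passed the filter only through the libraries without LIF. With a minimum of 5 CPM in 2 libraries none rose and 7 fell of 7 tested. P450 genes with close copies may share or lose reads.

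**Figure D4:**
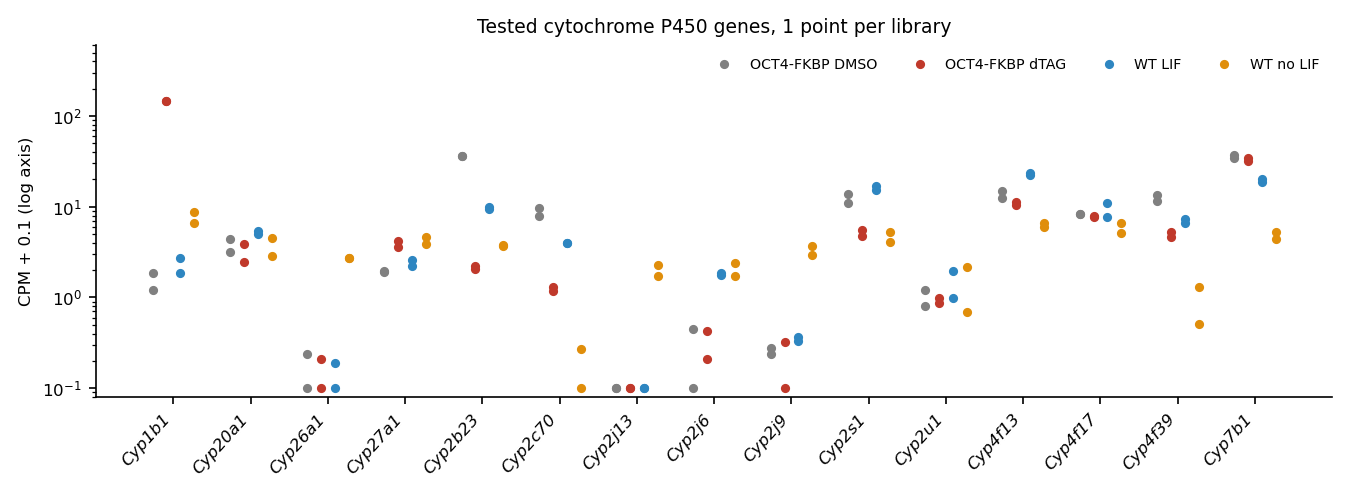
CPM + 0.1 on a logarithmic y axis for each tested cytochrome P450 gene of the list (x axis), 1 point per library and 4 colours for the groups. Of the genes drawn, Cyp1b1 has the highest CPM in the dTAG libraries, at 145 and 147, with no correction for transcript length. Cyp2b23 falls from 36.5 CPM with DMSO to 1.97 and 2.11 CPM with dTAG, beside 9.89 and 9.29 CPM in WT cells with LIF.

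Of 20 other basic helix-loop-helix PAS genes, the family of Ahr and Ahrr, 10 were tested. Among these, Arnt, Arnt2, Ncoa1, Ncoa2 and Ncoa3 were also counted in the receptor complex. With dTAG 1 rose and 4 fell (5 of 10 called, beside 40.5% of all tested genes; median -0.31), and 2 or 3 were called without any 1 of the 4 libraries of the comparison. Epas1, which encodes HIF-2 alpha, fell from 87.0 and 84.5 to 21.7 and 20.3 CPM with dTAG (log2 -2.03, SE 0.11, edgeR adjusted p = 2.0e-14) and by 0.68 on the log2 scale without LIF. Without LIF 4 of the family rose and 5 fell (9 of 10 called, beside 68.4%), with a median of -0.36. Of the 4 that rose, Npas1 and Per2, named after their values were seen, passed the filter only through the libraries without LIF.

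The genes whose log2 CPM was most like that of Cyp1b1 over the 8 libraries, among 7049 genes with a mean of at least 5 CPM, were Frem2 (r = 0.990), 5031439G07Rik (r = 0.985), Gadd45g (r = 0.981), Gata6 (r = 0.980), Ccng1 (r = 0.980) and Phlda2 (r = 0.980). None of them is in a receptor list used here. Since the 8 points fall in 4 groups of 2, these values describe the group means and carry no test. Frem2, an extracellular matrix gene, had mean levels of 13.4 CPM with DMSO, 433 with dTAG, 18.2 with LIF and 60.0 without it. Gata6, a transcription factor gene of primitive endoderm, had 0.536, 18.7, 1.37 and 2.75 CPM in the same order, and Phlda2, an imprinted growth gene, 15.0, 249, 11.9 and 43.9 CPM. The r value takes no account of the size of a change. With dTAG, Gadd45g rose 14.9-fold, but 5031439G07Rik only 1.67-fold (103 to 172 CPM) and Ccng1 1.68-fold (733 to 1231 CPM). The other members were less like Cyp1b1, at r = 0.66 for Ahr, 0.40 for Nqo1 and -0.23 for Tiparp. Tiparp and Nqo1 were opposed, at r = -0.98. The closest genes were Cbx7 (r = 0.998) and Pcdh18 (r = 0.997) for Ahr, Usp44 (r = 0.998) and Dusp4 (r = 0.997) for Tiparp, and Sox15 and Tmem64 (both r = 0.998) for Nqo1.

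**Figure D5:**
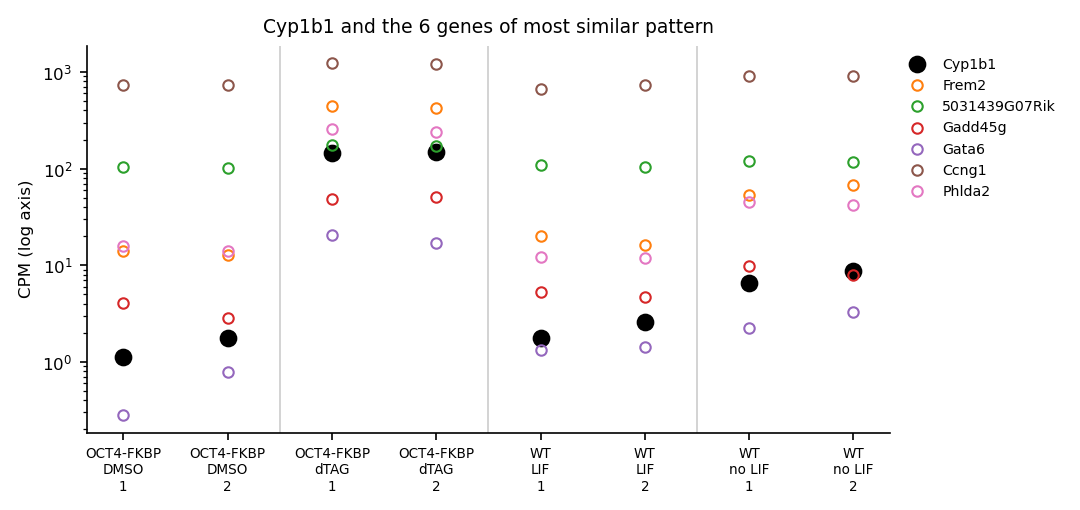
CPM on a logarithmic y axis in each of the 8 libraries (x axis) for Cyp1b1 (filled) and the 6 genes most like it (open). All 7 are highest in both dTAG libraries, at 145 and 147 CPM for Cyp1b1. Cyp1b1 was chosen for its rise with dTAG and the other 6 for likeness to it, so this pattern follows from the choice.

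Markers of other cell types also moved with these groups. The 12 trophoblast markers summed to 61.9 to 64.4 CPM with DMSO and 263 to 282 with dTAG. In WT cells they summed to 27.4 to 27.8 with LIF and 1403 to 1509 without it. Cdx2 (180 CPM) was most of the sum with dTAG, and Krt18 (851 CPM) and Krt8 (499 CPM) most of it without LIF. Cdx2 was already at 32.9 CPM in the tagged line with DMSO, beside 0.794 CPM in WT cells with LIF (log2 5.43, SE 0.23, edgeR adjusted p = 1.5e-15). Without LIF 7 of the 8 tested rose and Tfap2c fell 4.98-fold (100% called, beside 68.4% of all tested genes). Eomes and Hand1 passed the filter only through the libraries without LIF. With dTAG 5 of the 8 tested rose and none fell (62.5% called, beside 40.5% of all tested genes, 20.1% higher). Gata3 had 0 reads in every group, with 4 accessions. The 12 fibroblast markers summed to 464 to 482, 630 to 660, 331 to 336 and 973 to 1013 CPM in the same order, and Dcn and Postn, with several accessions, had 0 reads in every group. Vim was most of that sum with DMSO (448 CPM) and dTAG (625 CPM) and rose with dTAG while Col1a1 fell (log2 -0.96). Without LIF Vim fell 3.18-fold, and Tagln (744 CPM) and Acta2 (127 CPM) made up most of it. The 12 primitive endoderm markers, which include Gata6, summed to 323, 110 to 118, 299 to 337 and 119 to 128 CPM, and Gata4, Foxa2 and Col4a1 had 0 reads in every group, all with several accessions. With DMSO that sum was mostly Lama1 (322 CPM), which fell in both responses, while Gata6 rose 30.9-fold with dTAG. Without LIF 3 of the 4 tested endoderm markers rose, Cubn 89.6-fold, Sox7 8.32-fold and Gata6 1.93-fold, where 34.0% of all tested genes were higher. Cubn and Sox7 passed the filter only through the libraries without LIF, and the other listed endoderm markers were not tested. The part of all these markers in the changes of the receptor genes was not tested.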

How the data were processed

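RNA-seq counts of 8 libraries of mouse ES cells were used. Each table the authors deposited holds the raw counts of 1 library, by RefSeq transcript accession. Per the submitters' processing notes HISAT2, HTSeq and the build mm9 were used, without versions. For strand use in counting, the setting was not given in the sources used. Ambiguous reads made up 42.2% to 43.0% of counted plus ambiguous reads and reads without a feature 10.4% to 14.9% of uniquely aligned reads; both stayed out of library sizes. Of 41565 accessions, 41325 were named through a RefSeq table (GRCm38.p6), 126 through GENCODE and 114 kept their accession, and counts were summed per name, although the planned design had assumed counts per gene.

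Counts were tested in edgeR 4.0.16 (R 4.3.3): TMM, filterByExpr, glmQLFit and glmQLFTest in 1 fit of 4 groups with 4 residual degrees of freedom, a biological coefficient of variation of 4.43%, and Benjamini-Hochberg adjustment over 10311 genes with calls at 0.05. SE is the log2 fold change over the square root of its F statistic, and CPM uses TMM-adjusted library sizes. The procedure was tested on simulated data. Alternatives were DESeq2 1.42.0, its size factors, no filter, 5 CPM in 2 libraries, only the compared libraries, single-accession genes, a replicate block and each library left out.

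Members and lists were chosen with earlier results of these data known. Named genes were the 6 members, up to 3 called genes of smallest adjusted p per list and response and a mean of 5 CPM or more, and the 6 (Cyp1b1) or 2 genes most like each member. Replicates differed by more than sampling noise. Promoter sequences came from the RefSeq table by symbol.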

Additional observations from a re-analysis of the deposited data

Results flagged for a closer look

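The responses to the dTAG compound and to LIF withdrawal differed for Nqo1 and for Tiparp by a test of the difference itself. For Nqo1 the response to the compound exceeded that to LIF withdrawal by 2.88 on the log2 scale (edgeR adjusted p = 3.1e-19), since it rose in one and fell in the other. For Tiparp the difference was -1.74 (edgeR adjusted p = 1.1e-12), with a small fall in the first and a rise in the second. Over all tested genes 55.0% differed by this test.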

How the results depend on the processing

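Of 749 log2 fold changes of single genes recomputed under other settings, 730 kept their direction and their side of the threshold, and 16 kept their direction and lost their call. Many of these are of genes named for their small adjusted p, so their stability follows in part from that choice. The log2 change of Ahr between DMSO and WT with LIF, which was not called, reversed without DMSO replicate 2, ranging from -0.08 to 0.24 over the libraries left out in turn. Leaving out 1 library in turn, the members called ranged from 1 to 3 with dTAG against DMSO and from 0 to 2 with DMSO against WT with LIF. With dTAG, calls in the same way ranged from 4 to 8 in the receptor complex, 4 to 9 among other receptor targets, 6 to 13 in the NRF2 pathway and 2 to 5 among PAS genes other than the members. The rise of Cyp1b1 with dTAG ranged from 6.36 to 7.00 over all alternatives, and its excess over the response to LIF withdrawal from 4.49 to 5.20, both highest without DMSO replicate 2. With a minimum of 5 CPM in 2 libraries, calls without LIF were 3 for ligand metabolism and 7 for other P450 genes, where fewer genes were tested. Ahr was not tested at that minimum or among single-accession genes.

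Deviations of same-numbered libraries from their group means correlated at -0.00982 to 0.0462 between groups. Counting noise enters each deviation, so these values do not settle whether same-numbered libraries were handled together. With the replicate number as a block, 4214 genes were called with dTAG against DMSO in place of 4175, and 3 members were called in both fits. The rise of Ahr with dTAG lost its call in 5 of 13 alternatives, and its rise without LIF in 0 of 13.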
